A study of Mus with 6 samples.

Results

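A set of 10 genes encoding receptors for lipids or foreign chemicals was followed in liver: the peroxisome proliferator-activated receptors Ppara, Pparg and Ppard, the liver X receptors (LXR) Nr1h3 and Nr1h2, the shared partner Rxra, the pregnane X receptor (PXR) Nr1i2, the constitutive androstane receptor (CAR) Nr1i3, the oestrogen-related receptor Esrra and the aryl hydrocarbon receptor Ahr. They were taken by gene symbol, without regard to their values, and all 10 were found among the 48882 genes listed. All 10 also passed the abundance filter (a mean of at least 0.5 TPM over the libraries) that left 14155 genes to test. Liver RNA came from FABP4 knockout (KO) and wild type (WT) mice, described as littermates, with 3 libraries of each genotype. Both genotypes had been fed ethanol in a Lieber-DeCarli liquid diet for 8 weeks and then given 1 ethanol binge, which produces alcoholic steatohepatitis (ASH), a fatty and inflamed liver, so all 6 libraries share that treatment. The labels do not say which cells lost the gene, or the sex or age of the mice. The comparison asks whether the transcripts of these receptors and of their target genes differ when Fabp4, a fatty acid-binding protein of adipocytes, macrophages and capillary endothelium, is missing in ASH.

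All the receptors but Ahr belong to the nuclear receptor family, proteins that bind DNA and are switched by small lipid-like ligands. PPARs, LXRs, PXR and CAR bind DNA together with a retinoid X receptor, which makes Rxra a shared subunit of these pathways in hepatocytes. PPAR-alpha drives fatty acid oxidation in the fasted liver, the LXRs drive sterol export and fatty acid synthesis, and PXR and CAR induce enzymes that clear drugs and bile acids. Ahr belongs to another family, pairs with Arnt and is best known for inducing Cyp1a genes. Fatty acids are ligands of the PPARs, and fatty acid-binding proteins can carry them in the cell.

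Values are TPM, a share of all transcripts corrected for transcript length, so levels can be compared between genes, although the deposited values look quantile normalized across libraries. TPM keeps no sequencing depth, which is unknown here, so precision rests on 3 libraries per genotype. Between 20664 and 21438 genes had a value in a library. WT replicate 2 stood apart on the first principal component of all tested genes (-38.1, against -2.50 to 22.3 in the other 5 libraries) and KO replicate 1 on the second (-30.8, against -5.92 to 21.8). Fabp4 itself, the targeted gene, had a blank in the 3 KO libraries and was at 14.7, 8.15 and 19.957 TPM in the WT libraries. All 12 hepatocyte markers examined were present, with a summed level of 24959 to 29507 TPM in KO and 25710.3 to 31978 TPM in WT. Over all genes, 1 was called at a Benjamini-Hochberg (BH) adjusted p under 0.05 by limma (Fabp4, 0.00706% of the genes tested).

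None of the 10 receptors was called at a BH adjusted p under 0.05 in the limma fit over all genes, and the smallest adjusted p was 0.542, for Ppara. At an unadjusted p under 0.05 there was 1 of 10, Ppara, which was lower in KO, where 2.91% of all tested genes were at that level in the lower direction and 5.12% in the higher. Those shares were 412 lower and 725 higher genes, against 526 lower and 577 higher after scaling each library to a common median, and 537 lower and 570 higher after quantile normalization. No receptor had KO values wholly above or wholly below its WT values, against 13.3% of all tested genes (4.38% lower and 8.94% higher). The log2 difference was above 0 for 5 receptors and below 0 for 5, where 57.4% of all tested genes were above 0. The median of the receptors was 0.01, beside 0.04 over all genes tested. After that median scaling the receptors were split 3 higher and 7 lower, since several differences lay close to 0. The exact two-sided permutation test of a single gene cannot go below p = 0.1 with 3 against 3 libraries, and the smallest exact p among the receptors was 0.2.

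**Figure D1:**
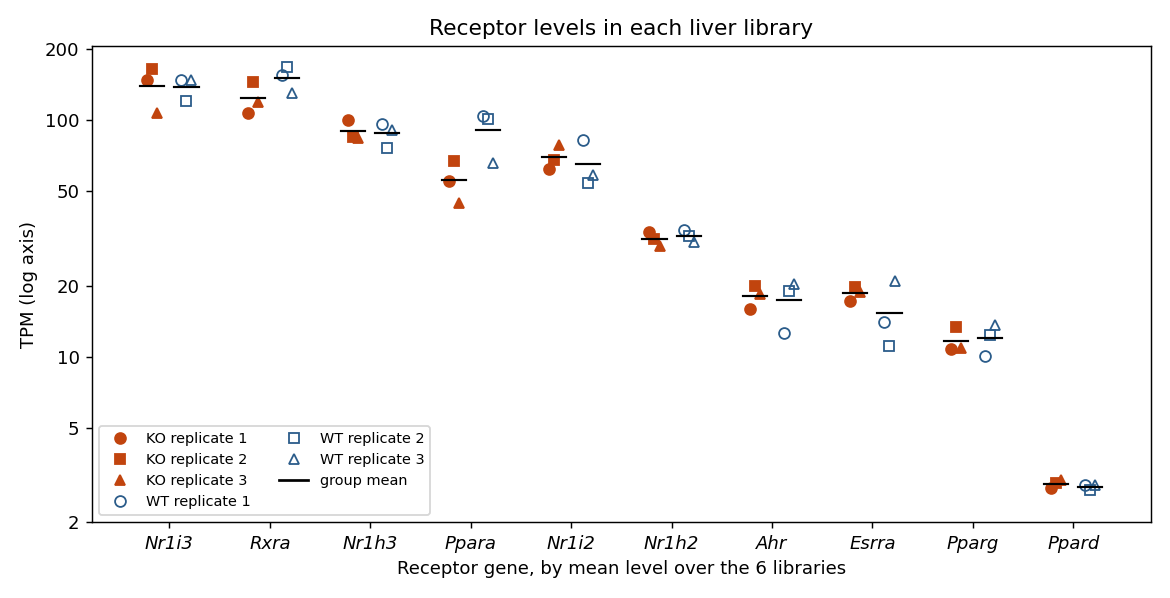
TPM of the 10 receptor genes in each library on a log axis, KO (filled) left of WT (open), with the group mean as a line. Nr1i3 and Rxra lie at the top and Ppard at about 3 TPM, and the Ppara values of KO replicates 1 and 3 lie below all 3 WT values.

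The receptors formed tiers of abundance. Nr1i3 and Rxra were the most abundant, at means of 140.2 and 124 TPM in KO and 139 and 151 TPM in WT, and which of these receptors was higher differed between libraries (Nr1i3 in 2 of 3 KO and 1 of 3 WT libraries). Every value of Rxra lay above every value of Nr1h3, the lowest being 107 TPM and the highest of Nr1h3 100.1 TPM. Nr1h3, Ppara and Nr1i2 formed the next tier, with ranges that overlapped. Nr1h2 stood alone below them, at 29.4 to 33.8 TPM in KO and 30.7 to 34.3 TPM in WT. Ahr, Esrra and Pparg overlapped between 10.1 and 20.8 TPM, and Ppard was lowest, never above 3.01 TPM. By mean level 94.1% of the tested genes lay below Nr1i3 and 31.3% below Ppard. Ppara ranked 5 of the 10 in KO and 3 of the 10 in WT. Its level was below that of Nr1i2 in all 3 KO libraries and above it in all 3 WT libraries, a comparison picked after the values were seen and not tested.

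Ppara (mm10 chromosome 15, 85734628 to 85806851, plus strand) encodes the main fatty acid sensor of hepatocytes and had the largest difference of the 10. It was at 55.2, 67.3 and 44.9 TPM in KO replicates 1, 2 and 3, and at 105, 101 and 66.0 TPM in WT replicates 1, 2 and 3. KO replicates 1 and 3 were below every WT library, while KO replicate 2 was just above WT replicate 3, so the groups overlapped by that pair. The means were 55.8 ± 11.2 TPM in KO and 90.5 ± 21.4 TPM in WT (SD, n = 3 each), with KO at 61.6% of WT. The log2 difference was -0.68 (SE 0.22, 95% interval -1.19 to -0.17), with an unadjusted p of 0.0159 and a BH adjusted p of 0.542 from limma. The exact two-sided permutation p was 0.2. When 1 library was left out, the log2 difference lay between -0.89 and -0.53, and the unadjusted limma p was above 0.05 without WT replicate 1 (0.0583), WT replicate 2 (0.0515) or KO replicate 3 (0.0598).

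Rxra (mm10 chromosome 2, 27676445 to 27763319, plus strand), the partner that PPARs, LXRs, PXR and CAR share, was the receptor with the next smallest p. It was at 107, 145 and 119 TPM in the KO libraries and at 155, 168 and 131 TPM in the WT libraries. As with Ppara, WT replicates 1 and 2 were above all KO libraries, and KO replicate 2 was above WT replicate 3. The means were 124 ± 19.1 TPM in KO and 151 ± 19.0 TPM in WT (SD, n = 3 each). The log2 difference was -0.29 (SE 0.16, interval -0.66 to 0.07), with a limma adjusted p of 0.698. Without KO replicate 2 its unadjusted limma p was 0.0427. Rxra made up 81.9% to 87.4% of the summed TPM of the 3 retinoid X receptor genes in every library. Rxrb was at 16.2, 17.8 and 13.2 TPM in KO and at 22.8, 16.7 and 17.3 TPM in WT (log2 -0.25, SE 0.17). Rxrg was at 7.54, 5.61 and 4.85 TPM in KO and near 7.4 TPM in each WT library (log2 -0.28, SE 0.16). The mean share of Rxra, as a log2 ratio, differed by -0.0031 between the genotypes (exact permutation p = 0.9, two-sided).

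The other PPARs were close to equal. Pparg (mm10 chromosome 6, 115360877 to 115490404, plus strand), the adipocyte PPAR that hepatocytes can also make in fatty liver, was at 10.8, 13.4 and 10.9 TPM in KO and 10.1, 12.3 and 13.7 TPM in WT. Its groups overlapped throughout, with a log2 difference of -0.04 (SE 0.15, interval -0.39 to 0.32). Ppard (chromosome 17, 28232754 to 28301469, plus strand), a widely expressed fatty acid receptor, was at 2.78, 2.92 and 3.01 TPM in KO and 2.87, 2.73 and 2.88 TPM in WT. It was the steadiest of the 10, its highest value being 1.10 times its lowest, and its log2 difference was 0.03 (SE 0.12, interval -0.26 to 0.32). The ratio of Pparg to Ppara was 0.212 ± 0.0259 in KO and 0.142 ± 0.0581 in WT (SD, n = 3 each). The ratio of WT replicate 3, at 0.207, lay among the KO values of 0.196, 0.198 and 0.242, and the log2 ratio differed by 0.65 (exact two-sided permutation p = 0.3).

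**Figure D2:**
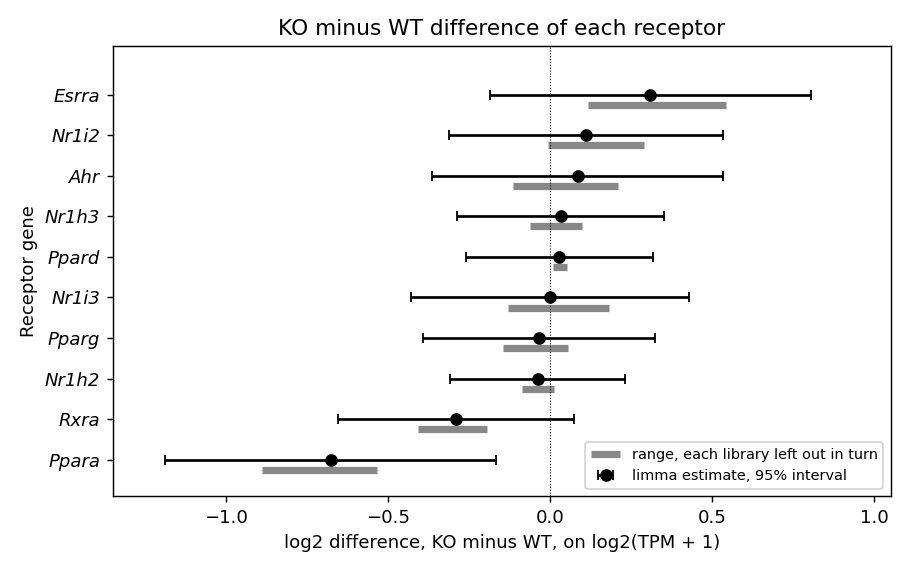
KO minus WT difference of each receptor on log2(TPM + 1), as the limma estimate with its 95% interval (black), and the range when each library is left out in turn (grey). The interval of Ppara, -1.19 to -0.17, is the one of the 10 that does not reach 0, before adjustment over all genes.

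The LXR genes, whose products sense oxysterols, did not separate the genotypes. Nr1h3 (LXR-alpha, mm10 chromosome 2, 91184061 to 91202829, minus strand), the form abundant in liver and macrophages, was at 100.1, 84.7 and 84.5 TPM in KO and 96.1, 76.7 and 91.0 TPM in WT. KO replicate 1 was the highest and WT replicate 2 the lowest library, and the log2 difference was 0.03 (SE 0.14, interval -0.29 to 0.35). Nr1h2 (LXR-beta, chromosome 7, 44549616 to 44553968, minus strand), the widely expressed form, was at 33.8, 31.6 and 29.4 TPM in KO and 34.3, 32.5 and 30.7 TPM in WT, a log2 difference of -0.04 (SE 0.12, interval -0.31 to 0.23). The ratio of Nr1h3 to Nr1h2 was 2.84 ± 0.145 in KO and 2.71 ± 0.313 in WT (SD, n = 3 each; exact two-sided permutation p = 0.7). Nr1h3 shares 18 bases with the opposite-strand gene Acp2, at 28.9 TPM in both genotypes, and strand use in the counting is not given in the sources used here.

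Both xenobiotic nuclear receptors overlapped between the genotypes. Nr1i2 (PXR, mm10 chromosome 16, 38248321 to 38294849, minus strand), which responds to drugs and bile acids, was at 62.2, 68.0 and 78.5 TPM in KO and 82.8, 54.5 and 58.5 TPM in WT. WT replicate 1 was the highest library and the other WT libraries the lowest, and the log2 difference was 0.11 (SE 0.18, interval -0.31 to 0.53). Nr1i3 (CAR, chromosome 1, 171213932 to 171218845, plus strand), which responds to phenobarbital-like inducers, was at 148, 165 and 107 TPM in KO and 147, 120.4 and 148 TPM in WT. KO replicates 2 and 3 were the highest and lowest of the 6 libraries, and the log2 difference was -0.0012 (SE 0.18, interval -0.43 to 0.43). Nr1i3 shares 1044 bases with Tomm40l on the opposite strand, at 74.3 TPM in KO and 76.2 TPM in WT, so reads of the pair may not be told apart and the level of Nr1i3 is uncertain. The ratio of Nr1i3 to Nr1i2 was 2.06 ± 0.604 in KO and 2.17 ± 0.379 in WT (SD, n = 3 each; exact two-sided permutation p = 0.8).

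Esrra (mm10 chromosome 19, 6910977 to 6922048, minus strand), an orphan receptor that drives mitochondrial genes together with PGC-1 coactivators, was at 17.2, 19.8 and 18.9 TPM in KO and 14.0, 11.1 and 20.8 TPM in WT. The KO libraries lay close together, inside the span of the WT libraries, with WT replicate 3 highest of all and WT replicate 2 lowest. The log2 difference was 0.31 (SE 0.21, interval -0.19 to 0.80), and without WT replicate 3 it was 0.54 at an unadjusted limma p of 0.0116 and an adjusted p of 0.388, the lowest of its alternatives, which reached 0.998. It shares 52 bases with Trmt112 on the opposite strand, at 50.6 TPM in KO and 50.9 TPM in WT. Ahr (chromosome 12, 35497979 to 35534989, minus strand), the dioxin receptor, was at 15.9, 20.005 and 18.5 TPM in KO and 12.6, 18.9 and 20.4 TPM in WT. WT replicate 1 was lowest and WT replicate 3 highest, and the log2 difference was 0.08 (SE 0.19, interval -0.36 to 0.53).

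Partners and coregulators, 20 genes, showed no call either, with 19 tested, 10 higher and 9 lower in KO. Hsp90ab1, the chaperone that holds Ahr and other receptors ready for ligand, had the smallest p of them, at 1268, 1146 and 1156 TPM in KO and 986, 688 and 881 TPM in WT. Its groups did not overlap, and its log2 difference was 0.50 (SE 0.16, limma adjusted p 0.536). Hsp90ab1 was the 1 of 19 at an unadjusted limma p under 0.05 (5.26%, near the 5.12% of all tested genes higher). It was also the 1 without overlap, beside 8.94% of all tested genes wholly higher. The coactivator Ncoa3 differed by 0.24 (SE 0.16) on the log2 scale. Arnt, the partner of Ahr, was at 15.1, 21.2 and 18.3 TPM in KO and 19.3, 22.01 and 18.2 TPM in WT, and Ppargc1a, the coactivator PGC-1-alpha, stayed between 1.88 and 3.14 TPM in all libraries. Of 22 other nuclear receptors tested, 11 were higher and 11 lower. Rarg, a retinoic acid receptor, was at 3.997, 4.90 and 5.70 TPM in KO and 2.72, 2.40 and 3.42 TPM in WT, without overlap (log2 0.61, SE 0.17, limma adjusted p 0.522). The orphan receptor Esrrg (log2 0.44, SE 0.18) was also above WT in every KO library. Of the 22, KO values were wholly above WT for 3 and wholly below for 0, beside 8.94% and 4.38% of all tested genes. Rarg and Esrrg, 2 of the 22 (9.09%), were at an unadjusted limma p under 0.05 in the higher direction, beside 5.12% of all tested genes.

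Target genes were examined as a possible readout of the receptors. The Pearson correlation of a receptor with the mean log2 level of its tested targets was described over 6 libraries. It was 0.62 for Ppara, 0.47 for Ahr, 0.25 for Nr1h3 and 0.19 for Nr1i2. Negative values were -0.80 for Pparg, -0.68 for Nr1h2, -0.37 for Esrra and -0.30 for Nr1i3. Against the PPAR-alpha targets, Rxra had 0.40 and Ppard -0.08. Of 30 PPAR-alpha targets, all tested, 4 were at an unadjusted limma p under 0.05 in the lower direction (13.3%, beside 2.91% of all tested genes) and 0 in the higher direction (beside 5.12%), and 0 were called after BH adjustment. Among them were Cpt1a, Cpt1b and Plin2, each below WT in every KO library. Of the 30, KO values were wholly below WT for 4 and wholly above for 2. Those shares over all tested genes were 4.38% and 8.94%. Over the list 13 targets were higher and 17 lower in KO, and the median log2 difference was -0.02, beside 0.04 over all genes. The split was 19 higher and 11 lower without WT replicate 1, 16 higher and 14 lower without KO replicate 3, and 9 higher and 21 lower without WT replicate 2, and with libraries left out the median lay between -0.13 and 0.14. Cpt1a, the liver gate for fatty acid entry into mitochondria, was at 209, 218 and 216 TPM in KO and 385, 347 and 245 TPM in WT (log2 -0.58, SE 0.18). KO replicate 2 was the highest KO library, by a small margin, and WT replicate 3 the lowest WT library, the same libraries that met in Ppara. For Plin2 and Cpt1b, KO replicate 1 was the highest KO library instead, and WT replicate 3 again the lowest WT library. Plin2, a lipid droplet coat gene, was at 512, 444 and 415 TPM in KO and 934, 729 and 564 TPM in WT (log2 -0.67, SE 0.20). A second row for Plin2 overlaps this one in position, so the split between them is uncertain. Cpt1b, the muscle-type isoform, was low, at 2.22, 1.62 and 1.27 TPM in KO and 3.66, 2.92 and 2.65 TPM in WT (log2 -0.60, SE 0.18). The limma adjusted p of these 3 was 0.536. The counts were 9 lower and 1 higher without WT replicate 3, and 4 lower and 3 higher without WT replicate 1. They were 2 lower without both WT replicate 2 and KO replicate 1, where Cpt1a had an unadjusted limma p of 0.0744. Counts over all tested genes moved as well, from 412 lower and 725 higher with all libraries. They were 572 and 751 without WT replicate 3, 362 and 853 without WT replicate 1, and 473 and 525 without that pair.

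Other textbook PPAR-alpha targets pointed in both directions. Cyp4a14, a fatty acid omega-hydroxylase with a strong PPAR-alpha response in mouse, was at 1231, 1558 and 1651 TPM in KO and 1525, 744 and 1132 TPM in WT (log2 0.43, SE 0.26). Its near relative Cyp4a10 was at 814, 1040.4 and 1095 TPM in KO and 1118, 499.8 and 825 TPM in WT (log2 0.34, SE 0.28), and reads may be split wrongly between such similar genes. WT replicate 2, which was high in Ppara, was the lowest library for both. Acaa1b, a peroxisomal thiolase picked after its values were seen, was above WT in every KO library, at 1094, 1065 and 896 TPM in KO and 849.8, 395 and 804 TPM in WT (log2 0.65, SE 0.29). Pdk4, the kinase that turns off pyruvate dehydrogenase, was at 19.98, 8.98 and 7.94 TPM in KO and 89.7, 55.2 and 8.79 TPM in WT. WT replicate 3 was at the KO level, and the log2 difference of -1.58 had an SE of 0.77 (limma adjusted p 0.683). Fgf21, a secreted fasting hormone, differed by -0.59 (SE 0.43).

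**Figure D3:**
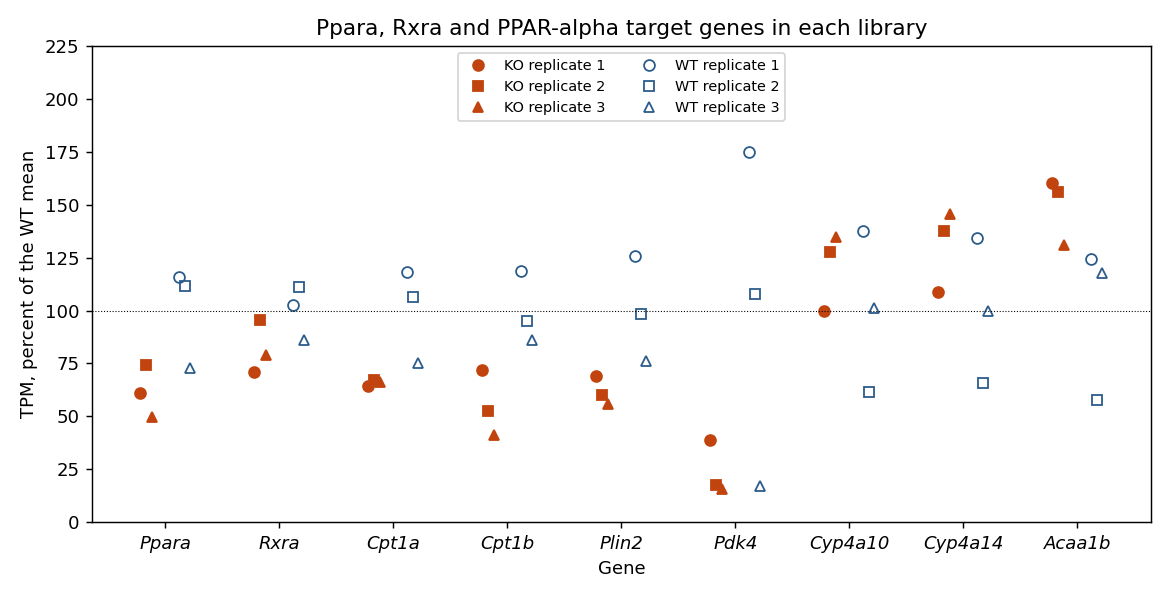
TPM of Ppara, Rxra and 7 PPAR-alpha target genes in each library, as a percent of the WT mean of that gene (dotted line at 100), KO filled and WT open. Cpt1a, Cpt1b and Plin2 lie lower in all 3 KO libraries than in any WT library, whereas Cyp4a10 and Cyp4a14 are lowest in WT replicate 2.

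Of 10 PPAR-gamma targets linked to fat storage, 7 were tested, 2 higher and 5 lower, where 57.4% of all tested genes were higher. At an unadjusted limma p under 0.05 there was 1 in the lower direction (14.3%, beside 2.91% of all tested genes). There were 0 in the higher direction (beside 5.12%). That member was Plin4, a lipid droplet coat gene (log2 -0.75, SE 0.29, limma adjusted p 0.580), while its KO replicate 1 at 4.61 TPM lay above WT replicate 1 at 4.04 TPM. Cidec, which promotes large lipid droplets, was at 42.9, 8.93 and 20.3 TPM in KO and 82.5, 85.8 and 16.2 TPM in WT. As with Pdk4, WT replicate 3 was among the KO values (log2 -1.25, SE 0.72). The triglyceride synthesis enzyme Mogat1 (-0.09, SE 0.29), the fatty acid transporter Cd36 (-0.04, SE 0.16) and the lipase Lpl (0.24, SE 0.39) were nearer to 0. The median of the tested members was -0.05, and -0.42 without WT replicate 2. The split was 5 higher and 2 lower without WT replicate 1, and 1 higher and 6 lower without WT replicate 2. Without the abundance filter all 10 were tested, 5 higher and 5 lower. In that fit 1 was higher and 0 lower at an unadjusted limma p under 0.05, beside 997 higher and 574 lower of 26660 genes. With the filter kept, left-out libraries also moved the count. The number at an unadjusted limma p under 0.05 was 2, both lower, without KO replicate 1 and 0 without KO replicate 2 or KO replicate 3. Over all tested genes, 412 were lower at that level with all libraries. That number was 544 without KO replicate 1, 300 without KO replicate 2 and 256 without KO replicate 3.

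LXR targets, 16 genes and all tested, were higher in KO for 11 and lower for 5, with a median log2 difference of 0.25, beside 0.04 over all genes. Pltp, the phospholipid transfer protein, was the 1 member at an unadjusted p under 0.05 in the higher direction (6.25% of the list, near the 5.12% of all tested genes), at 36.5, 30.7 and 47.5 TPM in KO and 34.2, 23.0 and 21.5 TPM in WT (log2 0.53, SE 0.22, limma adjusted p 0.599). Mylip, which marks the LDL receptor for degradation, was above WT in every KO library (log2 0.26, SE 0.14). It was the 1 member of 16 whose groups did not overlap, beside 8.94% of all tested genes wholly higher. Srebf1, the lipogenic regulator, was at 61.4, 99.6 and 143 TPM in KO and 53.3, 40.2 and 107 TPM in WT, and fatty acid synthase Fasn at 67.4, 110.3 and 149.6 TPM in KO and 28.2, 26.6 and 137 TPM in WT. For both, WT replicate 3 was higher than KO replicates 1 and 2, and the log2 differences of 0.63 (SE 0.41) and 1.12 (SE 0.61) had adjusted p-values of 0.746 and 0.700 from limma. The sterol exporters pointed in different directions, Abca1 at -0.23 (SE 0.15) and Abcg5 at 0.28 (SE 0.38). Cyp7a1, the rate-limiting enzyme of bile acid synthesis, spanned 14.9 to 205 TPM within WT and 100.05 to 137 TPM in KO (log2 0.96, SE 0.79). Without WT replicate 2 the list had 8 higher and 8 lower and a median of 0.0019, and its median was 0.09 without KO replicate 2 and 0.08 without KO replicate 3. At an unadjusted limma p under 0.05 there were 3 higher without WT replicate 3, and 0 higher without WT replicate 2, KO replicate 1 or KO replicate 3. Over all tested genes, 751, 488, 690 and 426 were higher at that level without these libraries in turn, beside 725 with all libraries.

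**Figure D4:**
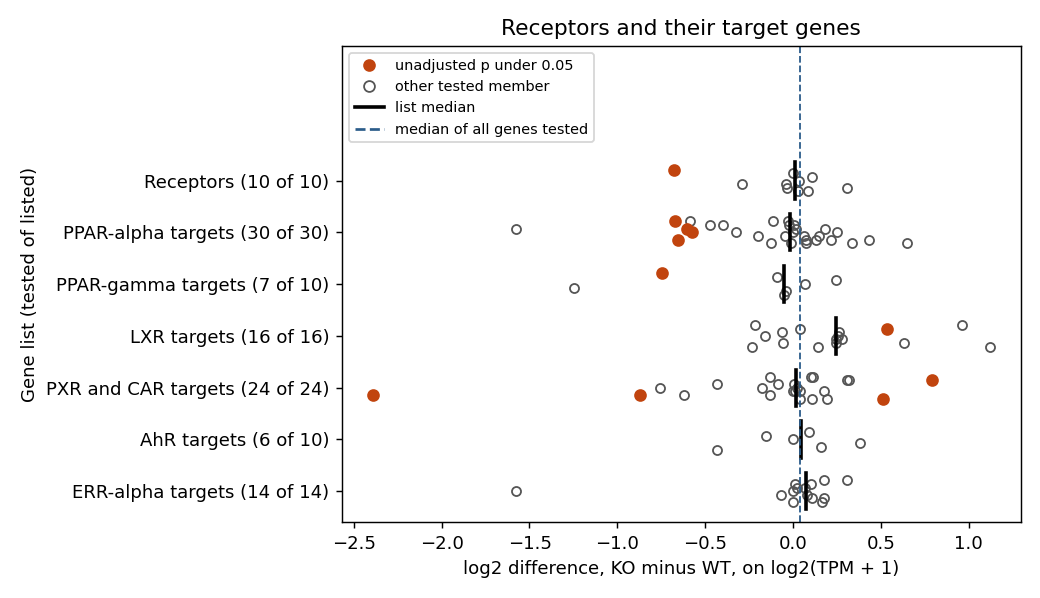
Log2 difference, KO minus WT, of every tested receptor and target gene, with the list median as a black bar and the median of all tested genes, 0.04, as a dashed line. Filled points are at an unadjusted limma p under 0.05, and 0 of the points were called after BH adjustment.

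PXR and CAR share many targets, and the textbook readouts Cyp2b10 and Cyp3a11 pointed in opposite directions. Of the 24 targets listed, KO values were wholly above WT for 1 and wholly below for 3, beside 8.94% and 4.38% of all tested genes. Of 24 targets, all tested, 14 were higher and 10 lower in KO, with 2 at an unadjusted limma p under 0.05 in each direction (8.33% each, beside 5.12% higher and 2.91% lower over all genes). Cyp2b10, the classical CAR readout, was at 104, 89.4 and 107 TPM in KO and 149, 275 and 149.95 TPM in WT. Its groups did not overlap, WT replicate 2 was highest, and the log2 difference was -0.87 (SE 0.24, limma adjusted p 0.522). Cyp3a11, the classical PXR readout, was at 5518, 7386 and 6187 TPM in KO and 3909, 5398 and 4112 TPM in WT, also without overlap (log2 0.51, SE 0.18, limma adjusted p 0.564). Alas1, the first enzyme of haem synthesis, was at 631, 658 and 1310.3 TPM in KO and 447, 370 and 632 TPM in WT, where WT replicate 3 reached KO replicate 1 (log2 0.79, SE 0.31). The oestrogen sulfotransferase Sult1e1 was at 1.68, 0.0720 and 0.550 TPM in KO and 2.26, 16.6 and 10.2 TPM in WT, low and variable values without overlap (log2 -2.39, SE 0.61, limma adjusted p 0.522). Cyp2b10 has close relatives in its gene cluster, as has Cyp3a11, and reads may be shared between them. Listed family members, named after their values were seen, did not follow these readouts. Cyp2b9 differed by 0.02 (SE 0.17), Cyp2b13 by 0.18 (SE 0.14) and Cyp3a13 by -0.62 (SE 0.29) on the log2 scale. After median scaling the list had 11 higher and 13 lower. The split was 8 higher and 16 lower without KO replicate 2, 9 higher and 15 lower without KO replicate 3, and 18 higher and 6 lower without KO replicate 1. With 1 library left out, the number higher at an unadjusted p under 0.05 was 4 without KO replicate 1, 1 without WT replicate 2, WT replicate 3 or KO replicate 2, and 0 without WT replicate 1 or KO replicate 3. The number lower was 4 without WT replicate 3 or KO replicate 2 and otherwise 2. Over all tested genes, these left-out settings gave 426 to 853 higher and 256 to 572 lower at that level.

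**Figure D5:**
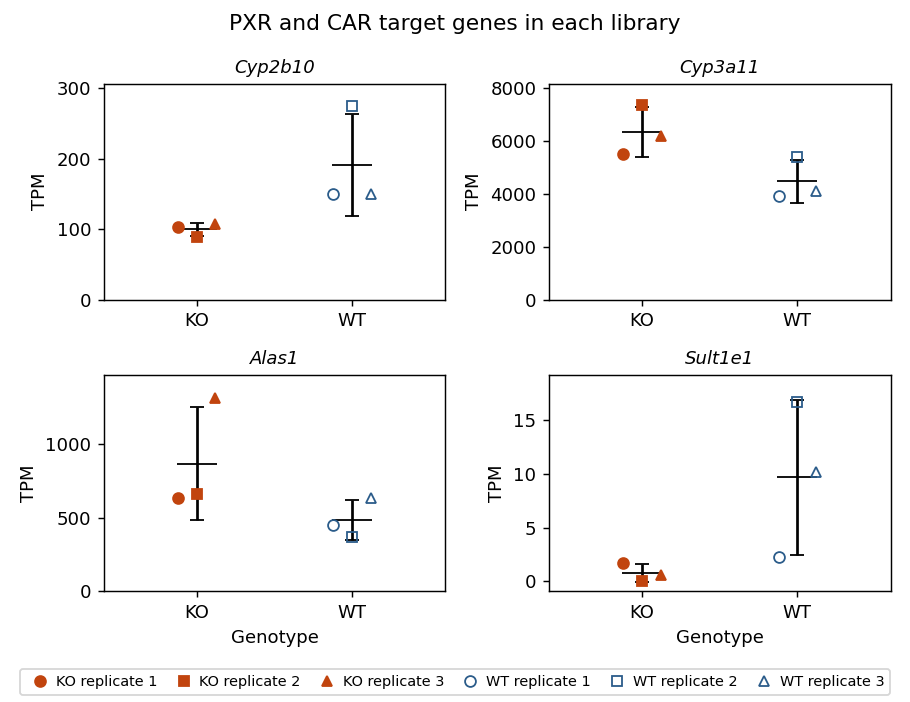
TPM of the 4 PXR and CAR targets with the smallest p in each library, KO left of WT, with the group mean and SD (n = 3 each) in black. Cyp2b10 and Sult1e1 lie lower and Cyp3a11 higher in all KO libraries than in any WT library.

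The Ahr and Esrra readouts gave no gene at an unadjusted limma p under 0.05 with genotype as the only term and all libraries. In that fit 5.12% of all tested genes were higher and 2.91% lower at that level. There was 1 Ahr target without WT replicate 3 (higher) or KO replicate 2 (lower). There were 2 Esrra targets without WT replicate 3, Esrra itself higher and 1 lower, and 1 lower in the replicate block fit. Over all tested genes, 751 were higher and 572 lower without WT replicate 3. These counts were 652 and 300 without KO replicate 2, and 484 and 332 in the block fit. Of 10 Ahr targets 6 were tested. Cyp1a2, the constitutive hepatic member of the family, was at 144, 313 and 192 TPM in KO and 239, 269.7 and 331 TPM in WT (log2 -0.43, SE 0.28). The inducible Cyp1a1 stayed under 1 TPM, at 0.495, 0.736 and 0.275 TPM in KO and 0.234, 0.410 and 0.351 TPM in WT, and was not tested. Tiparp, which represses Ahr, differed by -0.16 (SE 0.14), Ugt1a6a, whose locus shares exons with other Ugt1a genes, by 0.09 (SE 0.12), and the antioxidant regulator Nfe2l2 by 0.38 (SE 0.19), with all KO values above WT. Nfe2l2 was the 1 of the 6 tested whose groups did not overlap, beside 8.94% of all tested genes wholly higher. Of 14 Esrra targets, which include Esrra itself, 10 were higher and 4 lower (71.4% higher, beside 57.4% of all tested genes). The median was 0.07, beside 0.04 over all genes. The respiratory chain genes Uqcrfs1 (0.18, SE 0.12) and Cycs (0.10, SE 0.12), the citric acid cycle gene Idh3a (0.17, SE 0.14) and the fatty acid oxidation gene Acadm (-0.00083, SE 0.15) all differed by less than 0.2 on the log2 scale. Pdk4 is on this list too, as the member farthest from 0.

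Markers of other cell types and inflammatory genes also differed in mean between the genotypes, and their part in the receptor values was not tested. In whole liver, fewer cells of a type and less RNA per cell cannot be told apart. For the counts below, 57.4% of all tested genes were higher in mean in KO. At an unadjusted limma p under 0.05, 5.12% of all tested genes were higher and 2.91% lower. Kupffer cell and monocyte markers, 13 genes that were all higher in mean in KO and 3 at an unadjusted limma p under 0.05, summed to 581 to 1254 TPM in KO and 274 to 825 TPM in WT. Endothelial markers (10 of 11 higher, 7 at an unadjusted limma p under 0.05) summed to 220 to 258 TPM in KO and 149.7 to 201 TPM in WT, without overlap, and stellate cell markers (10 of 10 higher) to 295 to 374 TPM in KO and 253 to 311 TPM in WT. Adipocyte markers, 3 of 7 tested, summed to 13.4 to 56.4 TPM in KO and 21.3 to 92.1 TPM in WT, and most of that sum was Cidec, a PPAR-gamma target. The adipokine Adipoq was at 1.99 TPM in KO replicate 1 and listed at 0 in the other KO and all WT libraries. Cfd, another gene of fat tissue, was at 5.94 TPM in KO replicate 1, listed at 0 in the other KO libraries and at most 0.105 TPM in WT. Of 8 neutrophil markers 4 were tested, all 4 lower in KO and 3 at an unadjusted limma p under 0.05. The 8 summed to 15.8 to 20.6 TPM in KO and 20.9 to 50.1 TPM in WT. The defining genes Ly6g and Mpo were not tested. They were listed at 0 in every library of both genotypes but WT replicate 2, where they were at 0.104 and 0.0378 TPM. Lymphocyte markers were higher for 4 of 5 tested and cholangiocyte markers for 5 of 5. Acute-phase genes, 15 of 15 lower in mean in KO and 13 of them at an unadjusted limma p under 0.05, summed to 13554 to 16665 TPM in KO and 16525 to 41897 TPM in WT. WT replicate 2 was highest in these, at 41897 TPM, and WT replicate 3 lowest of the WT libraries, at 16525 TPM. No marker of these lists was at 0 in every library. Core clock genes, some of which help set the daily rhythm of nuclear receptors, were higher for 7 and lower for 8 of 15 tested, and 0 were at an unadjusted limma p under 0.05. Among zonation genes, 9 of 10 pericentral genes were lower in mean in KO and 8 of 10 periportal genes higher, with median log2 differences of -0.13 and 0.15.

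Genes whose pattern over the 6 libraries was most like that of the 3 receptors with the smallest p were sought among 12409 genes with a mean of at least 1 TPM. With Ppara, Rpl34-ps1 and 0610031O16Rik had Pearson correlations of 0.994 and 0.987, and the catenin-like gene Ctnnal1 one of 0.987. With Esrra they were the folate transporter Slc46a1 (0.998), the galactose mutarotase Galm (0.997) and Iffo2 (0.992). With Rxra the highest values were 0.988 and 0.980 for unnamed transcripts and 0.982 for Ctif. These are descriptions over 6 libraries that share the normalization, and 33, 74 and 15 genes had a correlation above 0.95 with Ppara, Esrra and Rxra.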

How the data were processed

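RNA from flash-frozen liver was extracted with TRIzol and sequenced on a HiSeq instrument, per the labels' protocols. FastQC, Trimmomatic and the build mm10 are named in the submitters' processing notes. Which aligner, quantifier and annotation were used is not given in the sources used here. The deposited table holds 1 column per library, named TPM per the file headers. The deposited numbers are log2 values: some are below 0, and back-transformed columns add up to between 983800 and 1018120. Medians of 1.07 in all libraries are what quantile normalization leaves, so a shift of all genes cannot be seen. A blank was read as a TPM of 0, and none of 20 housekeeping genes was blank. TPM was log2-transformed with a pseudocount of 1, which understates differences of low genes. Genes with a mean of at least 0.5 TPM were tested with limma 3.58.1 in R 4.3.3 (trend, genotype as the only term, two-sided), with BH adjustment over all 14155 genes at 0.05. The fit was tested on simulated data.

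Differences are KO minus WT. The labels do not tie replicate numbers to mice or litters, so the p-values cover only the spread between these libraries, which may be technical. The members and lists were chosen with earlier results of these data known. The 292 list genes all matched, Plin2 by its gene number. Genes named are the receptors, Fabp4, textbook readouts and up to 4 members of each receptor or target list with the smallest p, and likeness is Pearson's r. Lists were described by counts and medians and not tested as sets. Alternatives were other pseudocounts, filters, scalings, variance models, a replicate block and left-out libraries. Most list members enter only the counts, and a few results are not reported here.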

Additional observations from a re-analysis of the deposited data

How the results depend on the processing

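Under 18 alternatives none of the 10 receptors was called by limma (0 in each; Ppard dropped out at a mean of at least 5 TPM). Ppara and Rxra were lower and Esrra higher in KO in all 18. The filters, the variance models and the replicate block leave the log2 difference unchanged by design. Only the other alternatives could alter its sign. The number of receptors at an unadjusted limma p under 0.05 ranged from 0 to 2 when a library was left out, and was 0 without both WT replicate 2 and KO replicate 1. Over all tested genes, 426 to 853 were higher and 256 to 572 lower at that level when 1 library was left out. The number of genes called was 0 without a filter, without a pseudocount (where Fabp4 has no value) and with the replicate block, 0 to 6 with a library left out, and 3 without WT replicate 2 and KO replicate 1. Fabp4 had a limma adjusted p of 0.145 without a filter and 0.0820 with the block, at the same log2 difference of -3.85. Its adjusted p ranged from 0.00126 to 0.176 over the alternatives that gave one, and was above 0.05 without WT replicate 1, KO replicate 1 or KO replicate 2. Same-numbered libraries did not deviate together (r = -0.26, -0.27 and -0.05), and the replicate block changed no receptor call.

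Small log2 differences changed sign. Median scaling gave Ppard -0.0028 and Nr1h3 -0.0098, and quantile normalization gave Ppard -0.020. With libraries left out, Pparg ranged from -0.15 to 0.055, Nr1h3 from -0.14 to 0.098, Nr1h2 from -0.087 to 0.010, Nr1i2 from -0.0061 to 0.29, Nr1i3 from -0.15 to 0.18 and Ahr from -0.12 to 0.25. So did Cd36 (-0.19 to 0.076), Mogat1 (-0.52 to 0.15), Abcg5 (-0.090 to 0.62), Acadm (-0.13 to 0.12), Arnt (-0.24 to 0.073), Ppargc1a (-0.052 to 0.21) and Lpl (-0.20 to 0.498). The log2 ratio differences ranged from -0.055 to 0.14 for Nr1h3 to Nr1h2, from -0.256 to 0.16 for Nr1i3 to Nr1i2 and from -0.0195 to 0.043 for the Rxra share. The median of the PPAR-gamma targets lay between -0.42 and 0.025. The causes were not tested. With 3 libraries per genotype and no depth, differences within these ranges cannot be resolved.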
